A study of Homo sapiens with 18 samples.

Results

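The genes described here are 10 cytokines and chemokines that airway epithelium is known to secrete, namely IL6, IL1A, IL1B, CXCL8, CXCL1, CXCL2, CXCL3, CCL2, LIF and IL11. They were found by gene symbol among the 62649 gene identifiers counted in every library, and all 10 were present. Messenger RNA was sequenced from 2 human lung epithelial cell lines kept at an air-liquid interface, which had received smoke from wood either complete or filtered, or clean air. Each of the 6 combinations has 3 libraries, which makes 18. The study asks, by its title, about carbonyl compounds of the gas phase. BEAS-2B is an immortalised bronchial epithelial line and A549 is a line from an alveolar carcinoma, and the labels give the genotype of both as wild type. Both lines stood on 24 mm inserts, seeded 24 h earlier with 500000 BEAS-2B or 400000 A549 cells, and the exposure lasted 4 h in air of 85% humidity at 100 mL/min, clean-air controls included. BEAS-2B had been grown in KGM and A549 in RPMI with serum, so that line, growth medium and library depth cannot be told apart. The labels do not say whether the libraries of a group came from separate experiments, and p-values therefore cover only how these libraries vary, which may be technical.

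Epithelial cells release interleukin-1 family members, interleukin-6 and chemokines when they are injured or when their pattern recognition and stress pathways are engaged. CXCL8, CXCL1, CXCL2 and CXCL3 draw neutrophils through CXCR1 and CXCR2, CCL2 draws monocytes through CCR2, and IL6, IL11 and LIF signal through the shared receptor subunit gp130, encoded by IL6ST. Transcription of most of these genes is known to be driven by NF-kappaB and AP-1, and many of the transcripts carry AU-rich elements that shorten their life.

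The stretches just upstream of the start sites are shown because several members hold the same short motif at nearly the same distance from the start. RefSeq promoter windows (GRCh38.p14, 250 bases before to 50 after each start) were listed for 8 of the 10 members, CCL2 and LIF being the others. For 7 of them the 120 bases before the start follow, 5′ to 3′ on the gene's strand, with matches to GGANTTTCC (NF-kappaB-like) or TGANTCA (AP-1-like) in capitals.
IL6, chr7:22727080-22727199, plus strand: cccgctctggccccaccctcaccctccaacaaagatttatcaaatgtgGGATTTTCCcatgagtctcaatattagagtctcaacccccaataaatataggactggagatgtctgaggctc
CXCL8, chr4:73740449-73740568, plus strand: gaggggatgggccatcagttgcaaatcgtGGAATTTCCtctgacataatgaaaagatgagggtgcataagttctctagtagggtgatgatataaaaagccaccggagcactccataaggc
CXCL1, chr4:73869273-73869392, plus strand: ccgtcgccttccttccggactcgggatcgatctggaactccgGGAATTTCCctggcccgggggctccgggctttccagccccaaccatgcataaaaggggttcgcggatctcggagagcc
CXCL2, chr4:74099196-74099315, minus strand: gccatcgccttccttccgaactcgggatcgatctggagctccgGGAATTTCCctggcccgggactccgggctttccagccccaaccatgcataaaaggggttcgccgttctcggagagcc
CXCL3, chr4:74038690-74038809, minus strand: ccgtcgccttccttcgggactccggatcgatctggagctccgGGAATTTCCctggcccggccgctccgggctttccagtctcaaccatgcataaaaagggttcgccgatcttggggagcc
IL1A, chr2:112784494-112784613, minus strand: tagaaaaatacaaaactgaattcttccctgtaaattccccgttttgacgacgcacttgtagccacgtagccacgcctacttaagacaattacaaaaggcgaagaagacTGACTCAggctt
IL11, chr19:55370464-55370583, minus strand: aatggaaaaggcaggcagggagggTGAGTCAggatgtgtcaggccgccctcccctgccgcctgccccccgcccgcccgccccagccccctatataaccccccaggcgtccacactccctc

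The NF-kappaB-like letters, searched on both strands, were in 5 of the 8 windows. They began 91 bases before the CXCL8 start, 78 before the CXCL1 and CXCL3 starts, 77 before the CXCL2 start and 72 before the IL6 start. Of all 35116 promoter windows of 300 bases, 577 (1.64%) held such a match. AP-1-like letters stood in the IL1A, CXCL8 and IL11 windows, where 7.71% of all windows held them, and the CXCL8 match lay upstream of the stretch shown. The CXCL1 and CXCL3 stretches share 109 of 120 bases at the same offset and the CXCL1 and CXCL2 stretches 81 of 120, so this match is repeated in closely related sequence. The IL1B window held neither motif. These are matches of letters and say nothing of whether a factor is bound.

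The 3′ untranslated regions are shown at their densest AU-rich stretch because all 10 members held more ATTTA pentamers per kilobase than the median gene. Each window below is 30 bases long, with ATTTA in capitals, from the GRCh38 sequence of 1 GENCODE 29 transcript a gene.
IL6, bases 126 to 155 after the stop codon: ttaattatttttaATTTAttaatATTTAaa
IL1B, bases 331 to 360 after the stop codon: agcaaccgcttccctATTTATTTATTTAtt
CXCL8, bases 646 to 675 after the stop codon: acctATTTAttATTTAtgtATTTATTTAag
CXCL2, bases 139 to 168 after the stop codon: gtcttctATTTATTTATTTATTTATTTAtt
IL11, bases 29 to 58 after the stop codon: ccaaagccagatcttATTTATTTATTTAtt
CCL2, bases 113 to 142 after the stop codon: tgccttaagtaatgttaattcttATTTAag

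Over 19073 genes the median was 1.33 pentamers per kilobase of 3′ untranslated region, and the 90th percentile was 4.99. IL6 held 6 pentamers in 429 bases, or 14.0 per kilobase, a density above that of 99.3% of genes. CXCL2 held 10 in 721 bases (13.9 per kilobase), CXCL3 7 in 673 bases (10.4 per kilobase) and IL1B 6 in 610 bases (9.84 per kilobase). The densities were 7.19 for CXCL8, 7.08 for CXCL1, 5.56 for IL11 and 4.34 for IL1A. CCL2, with 1 pentamer in 376 bases (2.66 per kilobase), and LIF, with 7 in 3204 bases (2.18 per kilobase), were the 2 members nearest to the median.

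Gene counts summed to between 28532235 and 55032499 in BEAS-2B libraries and between 14438397 and 21432089 in A549 libraries. The third complete-smoke BEAS-2B library stood apart, with 31.7% of its reads mapping to several places, and the third filtered-smoke BEAS-2B library had 19.2%, against 7.69 to 12.9% in the other 16. Levels are given as CPM, read counts relative to library size, scaled by edgeR's TMM factors over all 18 libraries (TMM-scaled CPM), in the order of library 1, 2 and 3, and fold changes come from a fit of each line's 9 libraries, so that they can differ slightly from the ratio of the printed levels. A change was called at a Benjamini-Hochberg adjusted p under 0.05 in edgeR's quasi-likelihood test over all genes tested. In BEAS-2B the TMM factors were 0.6 to 0.89 after complete and 0.63 to 0.81 after filtered smoke, against 1.02 to 1.25 in clean air. Scaled by library size alone, the median gene there shifted to -0.75 after complete and -0.74 after filtered smoke on the log2 scale, against -0.06 and -0.07 with TMM, and in A549 to -0.1 and -0.15, against 0.02 and 0.01. The epithelial keratin and junction list was present in full in both lines, and BEAS-2B expressed all 6 airway basal markers. In A549, 2 of these averaged at least 1 CPM in each group, TP63 (9.53 CPM, against 5.09 in BEAS-2B) and ITGB4 (218 against 65.3). Both lines had 0 counts of the alveolar surfactant genes SFTPA1 and SFTPA2. Of the same alveolar list, ABCA3 averaged 40.1 CPM in A549 and 6.94 CPM in BEAS-2B, and LAMP3 0.297 and 1.53 CPM. A list of 10 leukocyte and macrophage markers summed to 119 to 219 CPM after complete and 108 to 214 CPM after filtered smoke, against 22.7 to 76.5 CPM in clean air, in BEAS-2B. S100A9 (mean 96.4 CPM over the 9 libraries) and S100A8 (14.2 CPM), which epithelium also expresses, made up most of it, while CD3E, LYZ and FCGR3A were at 0. A list of 6 fibroblast markers summed there to 235 to 467 CPM after complete and 362 to 506 CPM after filtered smoke, against 521 to 959 CPM in clean air. The part of these markers in the results was not tested. In bulk RNA, a change in the share of cells of a type and a change in RNA per cell cannot be told apart.

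In BEAS-2B the set was higher after smoke as a whole. After complete smoke 8 of the 10 members rose and none fell, where 21.5% of the 16356 genes tested rose and 19.5% fell. After filtered smoke 9 rose and none fell, where 23.6% of genes rose and 24.9% fell. The median log2 fold change of the 10 members was 2.69 after complete and 2.13 after filtered smoke, while that of all genes was -0.06 and -0.07. The 2 comparisons use the same 3 clean-air libraries. On TMM-scaled CPM all 3 smoke libraries lay above all 3 clean-air libraries for each of the 10 members in both comparisons. This was so for 23.6% of all genes tested after complete and 30.5% after filtered smoke. With library size alone, CXCL2, LIF and IL11 overlapped the controls in both comparisons. CXCL2 was then as low as 5.09 CPM after complete and 5.78 CPM after filtered smoke, and as high as 6.12 CPM in clean air.

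**Figure D1:**
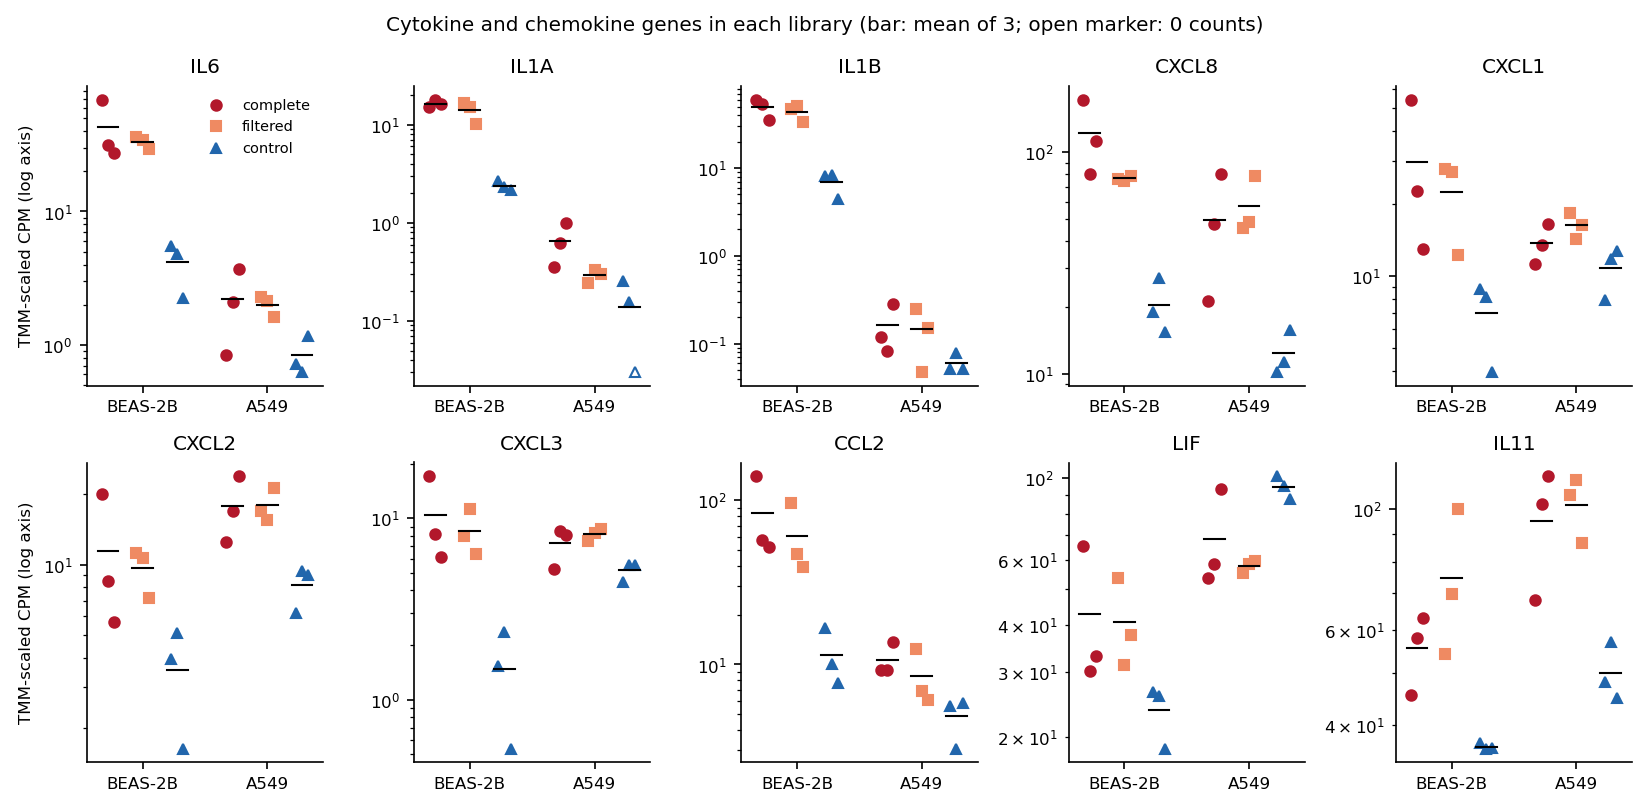
TMM-scaled CPM (log axis) of the 10 genes in each of 18 libraries, by line, with complete smoke, filtered smoke and clean air from left to right within a line; bars are means of 3 libraries and an open marker is a library with 0 counts. BEAS-2B smoke libraries lie above BEAS-2B clean-air libraries in every panel, and LIF is highest in A549 clean air.

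IL6 (ENSG00000136244, chromosome 7, 22725884 to 22732002, plus strand), which encodes the inducer of the hepatic acute-phase response, had 68.9, 31.5 and 27.5 CPM in BEAS-2B after complete smoke, 36.4, 34.3 and 29.2 CPM after filtered smoke, and 5.54, 4.82 and 2.25 CPM in clean air. The first complete-smoke library was the highest, and the lowest smoke library still lay well above every control. IL6 rose 10.1-fold after complete smoke (log2 fold change 3.34 ± 0.44, SE, adjusted p = 0.00213) and 7.82-fold after filtered smoke (2.97 ± 0.43, adjusted p = 0.00283).

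IL1A (ENSG00000115008, chromosome 2, 112773915 to 112784590, minus strand), the alarmin form of interleukin-1 that is active without cleavage, had 15.1, 18 and 16.2 CPM after complete smoke, 16.6, 15.2 and 10.2 CPM after filtered smoke, and 2.64, 2.3 and 2.17 CPM in clean air. Its controls and its complete-smoke libraries were each tightly grouped. IL1A rose 6.98-fold after complete (2.80 ± 0.25, adjusted p = 0.00124) and 5.86-fold after filtered smoke (2.55 ± 0.25, adjusted p = 0.00171).

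IL1B (ENSG00000125538, chromosome 2, 112829751 to 112836903, minus strand), which encodes a precursor that caspase-1 processes, had 60.2, 53.4 and 34.9 CPM after complete smoke, 47.3, 50.5 and 33.8 CPM after filtered smoke, and 8.15, 8.43 and 4.42 CPM in clean air. The third library was the lowest in all 3 BEAS-2B groups. IL1B rose 7.07-fold after complete (2.82 ± 0.32, adjusted p = 0.00164) and 6.20-fold after filtered smoke (2.63 ± 0.32, adjusted p = 0.00217).

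CXCL8 (ENSG00000169429, chromosome 4, 73740506 to 73743716, plus strand), interleukin-8, had 173, 79.8 and 113 CPM in BEAS-2B after complete smoke, 76.2, 74.4 and 78.6 CPM after filtered smoke, and 19.0, 27.2 and 15.5 CPM in clean air. The filtered-smoke libraries were within a few CPM of each other, and all 3 complete-smoke libraries lay above them. CXCL8 rose 5.98-fold after complete (2.58 ± 0.31, adjusted p = 0.0017) and 3.70-fold after filtered smoke (1.89 ± 0.30, adjusted p = 0.00346).

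CXCL1, CXCL2 and CXCL3, the growth-regulated neutrophil chemokines, are close paralogs whose shared reads the counting left out, so a split of reads between them is uncertain. CXCL1 (ENSG00000163739, chromosome 4, 73869393 to 73871242, plus strand) had 54.1, 22.5 and 12.9 CPM after complete smoke, 27.9, 27.1 and 12.2 CPM after filtered smoke, and 8.84, 8.14 and 3.97 CPM in clean air. CXCL2 (ENSG00000081041, chromosome 4, 74097035 to 74099293, minus strand) had 20.0, 8.48 and 5.69 CPM after complete smoke, 11.2, 10.7 and 7.17 CPM after filtered smoke, and 3.93, 5.09 and 1.63 CPM in clean air. CXCL3 (ENSG00000163734, chromosome 4, 74036589 to 74038807, minus strand) had 17.1, 8.2 and 6.1 CPM after complete smoke, 8.01, 11.2 and 6.34 CPM after filtered smoke, and 1.54, 2.36 and 0.535 CPM in clean air. For all 3 genes the first complete-smoke library was the highest and the third clean-air library the lowest. CXCL3 rose most, 7.08-fold after complete (2.82 ± 0.54, adjusted p = 0.00603) and 5.72-fold after filtered smoke (2.52 ± 0.54, adjusted p = 0.008). CXCL1 rose 4.23-fold after complete (2.08 ± 0.55, adjusted p = 0.0176) and 3.16-fold after filtered smoke (1.66 ± 0.54, adjusted p = 0.0316). CXCL2 rose 3.20-fold after complete (1.68 ± 0.51, adjusted p = 0.0283) and 2.71-fold after filtered smoke (1.44 ± 0.51, adjusted p = 0.0418).

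CCL2 (ENSG00000108691, chromosome 17, 34255218 to 34257203, plus strand), monocyte chemoattractant protein 1, had 140, 57.3 and 52.0 CPM after complete smoke, 95.8, 46.9 and 39.0 CPM after filtered smoke, and 16.6, 10.1 and 7.77 CPM in clean air. The first library was the highest in each of the 3 groups. CCL2 rose 7.16-fold after complete (2.84 ± 0.51, adjusted p = 0.00473) and 5.17-fold after filtered smoke (2.37 ± 0.50, adjusted p = 0.00772).

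LIF and IL11, the gp130 cytokines beside IL6, moved least in BEAS-2B. LIF (ENSG00000128342, chromosome 22, 30240447 to 30246851, minus strand), leukemia inhibitory factor, had 65.4, 30.2 and 33.0 CPM after complete smoke, 53.8, 31.2 and 37.7 CPM after filtered smoke, and 26.5, 25.8 and 18.6 CPM in clean air. All smoke libraries lay above the controls, some by a narrow margin, and neither change was called (0.86 ± 0.33, adjusted p = 0.0616 after complete; 0.78 ± 0.33, adjusted p = 0.076 after filtered smoke). IL11 (ENSG00000095752, chromosome 19, 55364389 to 55370463, minus strand), known in the lung for its link to fibrosis, had 45.5, 57.9 and 62.9 CPM after complete smoke, 54.1, 69.7 and 100.0 CPM after filtered smoke, and 37.1, 36.2 and 36.3 CPM in clean air. Its controls were nearly equal, and its highest library followed filtered smoke. IL11 rose 2.04-fold after filtered smoke (1.03 ± 0.25, adjusted p = 0.0121), and the change after complete smoke was not called (0.62 ± 0.25, adjusted p = 0.0712).

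The calls of IL6, IL1A, IL1B, CXCL8, CXCL3 and CCL2 in BEAS-2B held under all 16 alternatives run in each comparison, and those of CXCL1, CXCL2 and IL11 did not. With library size alone in place of TMM, CXCL2 was at 0.92 after complete and 0.76 after filtered smoke (adjusted p = 0.101 and 0.158), CXCL1 at 0.99 after filtered smoke (0.0836), IL11 at -0.02 after complete and 0.39 after filtered smoke (0.35 for the second), and LIF at 0.15 and 0.10. After complete smoke the CXCL1 call was lost without complete 1 (log2 fold change 1.34, adjusted p = 0.0624), control 2 (0.0555) or control 3 (0.0654), and the CXCL2 call without complete 1 (1.0, adjusted p = 0.119), control 2 (0.0519) or control 3 (0.0873). After filtered smoke the CXCL1 call was lost without filtered 1 (0.0922), filtered 2 (0.0873), control 2 (0.0795) or control 3 (0.105), and the CXCL2 call without filtered 1 (0.109), filtered 2 (0.0996), control 1 (0.0557), control 2 (0.0617) or control 3 (0.122). With only the 6 libraries of the groups compared, the CXCL2 call after complete smoke was lost (0.0583). LIF was called after complete smoke without complete 3 (0.0384), with control 1 and complete 3 both left out (1.15, adjusted p = 0.0268) and by DESeq2 (0.0328), and after filtered smoke with both left out (0.0435) and with only the libraries compared (0.0412). IL11 was called after complete smoke by DESeq2 (0.0433).

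**Figure D2:**
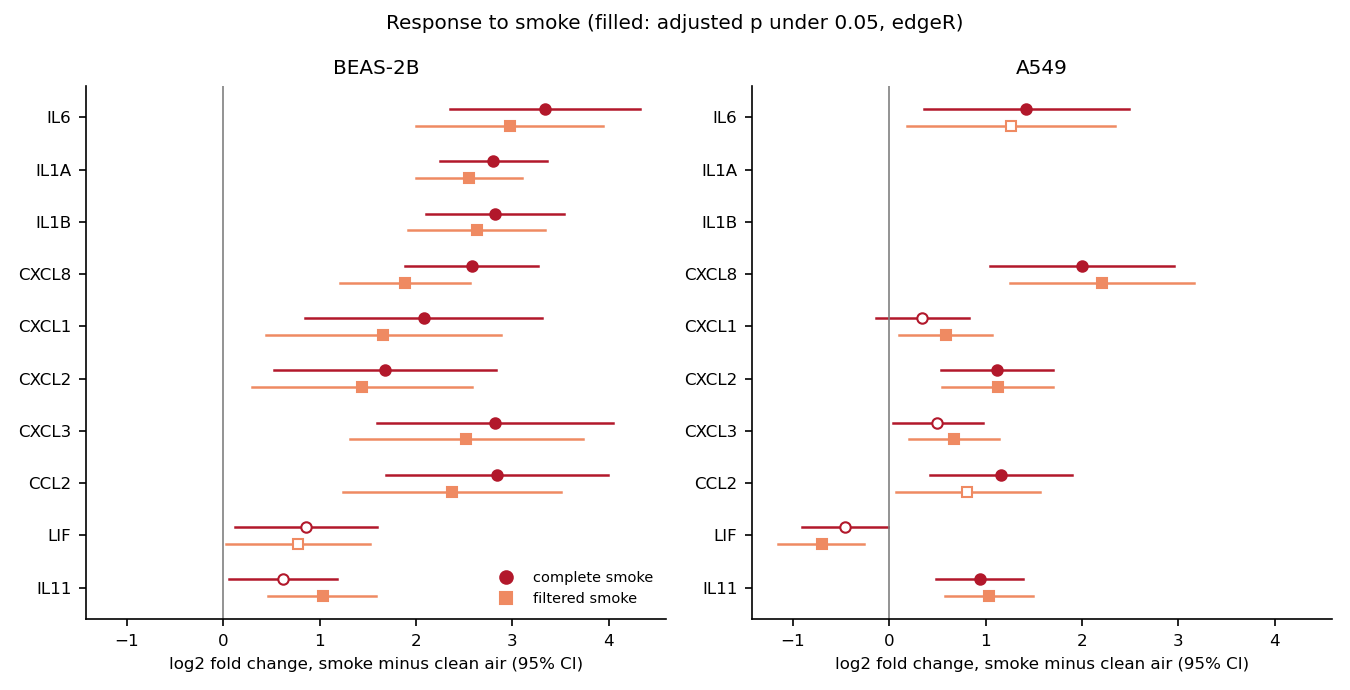
log2 fold change of smoke over clean air with its 95% confidence interval, in BEAS-2B (left) and A549 (right), with complete smoke as circles above filtered smoke as squares; filled marks have an adjusted p under 0.05. IL6 is the highest point in BEAS-2B (3.34 after complete smoke), and LIF is the one gene left of 0 in A549; IL1A and IL1B were not tested in A549.

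In A549 8 of the 10 members passed the filter on low counts, and they did not all move one way. After complete smoke 5 of these 8 rose and none fell, where 15.6% of the 15244 genes tested rose and 16.9% fell. After filtered smoke 5 rose and LIF fell, where 23.1% of genes rose and 23.5% fell. The median log2 fold change of the 8 was 1.03 after complete and 0.92 after filtered smoke, against 0.02 and 0.01 for all genes, with the same 3 controls in both comparisons.

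CXCL8 was the member that rose most in A549. It had 21.4, 47.6 and 80.2 CPM after complete smoke, 45.4, 48.4 and 78.6 CPM after filtered smoke, and 10.2, 11.4 and 15.9 CPM in clean air. Every smoke library exceeded every control, and the complete-smoke libraries were spread the widest. CXCL8 rose 4.00-fold after complete (2.0 ± 0.43, adjusted p = 0.0102) and 4.62-fold after filtered smoke (2.21 ± 0.43, adjusted p = 0.00419).

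IL11 and CXCL2 rose after both exposures as well. IL11 had 68.1, 102 and 115 CPM after complete smoke, 106, 113 and 86.6 CPM after filtered smoke, and 48.1, 56.9 and 44.9 CPM in clean air, and no smoke library overlapped a control. The increase was 1.92-fold after complete (0.94 ± 0.20, adjusted p = 0.0106) and 2.05-fold after filtered smoke (1.04 ± 0.20, adjusted p = 0.00436). CXCL2 had 12.5, 16.9 and 23.9 CPM after complete smoke, 16.9, 15.5 and 21.3 CPM after filtered smoke, and 6.2, 9.42 and 9.02 CPM in clean air. Its groups did not overlap either. The increase of CXCL2 was 2.17-fold after complete (1.12 ± 0.26, adjusted p = 0.0135) and 2.18-fold after filtered smoke (1.13 ± 0.26, adjusted p = 0.00812).

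CXCL1 and CXCL3 differed less from the controls in A549. CXCL1 had 11.2, 13.4 and 16.4 CPM after complete smoke, 18.2, 14.2 and 16.2 CPM after filtered smoke, and 7.91, 11.8 and 12.7 CPM in clean air. The complete-smoke libraries overlapped the controls (0.34 ± 0.22, adjusted p = 0.236), while CXCL1 rose 1.5-fold after filtered smoke (0.59 ± 0.22, adjusted p = 0.0489). CXCL3 had 5.24, 8.48 and 8.12 CPM after complete smoke, 7.54, 8.34 and 8.73 CPM after filtered smoke, and 4.44, 5.53 and 5.55 CPM in clean air. Complete-smoke library 1 lay among the controls, and that change was not called (0.50 ± 0.21, adjusted p = 0.0861). CXCL3 rose 1.59-fold after filtered smoke (0.67 ± 0.21, adjusted p = 0.0255). With sample number as a block, a pairing that the labels do not state, CXCL3 was called after complete smoke too (0.49, adjusted p = 0.0195).

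CCL2 had 9.22, 9.23 and 13.7 CPM in A549 after complete smoke, 12.4, 6.88 and 6.12 CPM after filtered smoke, and 5.58, 3.07 and 5.86 CPM in clean air. The smoke libraries lay above the controls, by little for filtered 3. CCL2 rose 2.24-fold after complete smoke (1.16 ± 0.33, adjusted p = 0.0269), and the change after filtered smoke was not called (0.81 ± 0.34, adjusted p = 0.0693; 0.82 and 0.0141 with the block).

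The interleukins were scarce in A549. IL6 had 0.833, 2.08 and 3.7 CPM after complete smoke, 2.27, 2.12 and 1.61 CPM after filtered smoke, and 0.724, 0.623 and 1.17 CPM in clean air, from 14 to 78 counts a library. The first complete-smoke library lay among the controls. IL6 rose 2.68-fold after complete smoke (1.42 ± 0.48, adjusted p = 0.0451), and the change after filtered smoke, whose libraries did not overlap the controls, was not called (1.26 ± 0.49, adjusted p = 0.0549; 1.31 and 0.0145 with the block). IL1A had 6, 15 and 21 counts after complete smoke, 4, 7 and 6 counts after filtered smoke, and 5, 4 and 0 counts in clean air. IL1B had 2, 2 and 6 counts after complete smoke, 4, 1 and 3 counts after filtered smoke, and 1, 2 and 1 counts in clean air. Neither gene passed the filter in A549, so no fold change is given for them.

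LIF ran the other way in A549. It had 53.6, 58.4 and 93.4 CPM after complete smoke, 55.5, 58.6 and 59.5 CPM after filtered smoke, and 101, 95.1 and 87.8 CPM in clean air. The filtered-smoke libraries were alike and all below the controls, whereas the third complete-smoke library reached the control range. LIF fell to 0.615 of the clean-air level after filtered smoke (-0.70 ± 0.20, adjusted p = 0.0179), and the change after complete smoke was not called (-0.46 ± 0.20, adjusted p = 0.0986). It was called after complete smoke with the block (-0.49, adjusted p = 0.0236) and without complete 3 (-0.75, adjusted p = 0.00524). An annotated antisense gene overlaps LIF, and the column used counts reads of one strand.

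In A549 the calls of CXCL8 and IL11 held in both comparisons whichever library was left out, and most others did not. After complete smoke the IL6 call was lost without complete 2 (adjusted p = 0.103), complete 3 (0.85 on the log2 scale, adjusted p = 0.13), control 1 (0.124), control 2 (0.145) or control 3 (0.0637), the CCL2 call without complete 1 (0.0547), complete 2 (0.0621), control 1 (0.0621), control 2 (0.0926) or control 3 (0.0507), and the CXCL2 call without control 1 (0.0538). CXCL3 was called after complete smoke without complete 1 (0.0458). After filtered smoke the CXCL1 call was lost without filtered 1 (0.146), filtered 2 (0.0681), filtered 3 (0.0536), control 1 (0.163) or control 2 (0.0877), the CXCL3 call without filtered 2 (0.0724), control 1 (0.0933), control 2 (0.0613) or control 3 (0.0511), and the LIF call without filtered 1 (0.0584), filtered 2 (0.0574) or control 1 (0.0574), while IL6 (0.0375) and CCL2 (0.0232) were called without filtered 3. With library size alone the calls of IL6 after complete smoke (0.0642) and of CXCL1 (0.153) and CXCL3 (0.0806) after filtered smoke were lost, as was that of IL6 with limma-voom (0.0791) and that of CXCL1 with a stricter filter (0.0526). Called members then numbered 3 without complete 2, control 1, control 2 or control 3 after complete smoke, and 3 without filtered 2 or control 1 after filtered smoke.

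No member was called between complete and filtered smoke. In BEAS-2B 0 of 16356 genes (0.0%) and in A549 0 of 15244 genes (0.0%) were called by edgeR between complete and filtered smoke. At an unadjusted p under 0.05 there were 222 genes in BEAS-2B, 1 of them a member, and 236 in A549, none of them a member, and DESeq2's Wald test called 3 genes in A549 and 0 in BEAS-2B. The BEAS-2B member was CXCL8, whose complete-smoke libraries all lay above its filtered-smoke libraries (0.69, 95% interval 0.04 to 1.35, unadjusted p = 0.0404 in edgeR, adjusted p = 1.0). IL11 in BEAS-2B was lower after complete than after filtered smoke by value (-0.41, interval -0.97 to 0.15), and the other 8 BEAS-2B members lay between 0.08 for LIF and 0.47 for CCL2. In A549 the 8 members tested lay between -0.24 for CXCL1 (interval -0.72 to 0.24) and 0.35 for CCL2 (interval -0.37 to 1.07). The intervals are wide, reaching from -0.76 to 1.60 for CXCL1 in BEAS-2B, so sizeable differences between complete and filtered smoke remain within them.

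**Figure D3:**
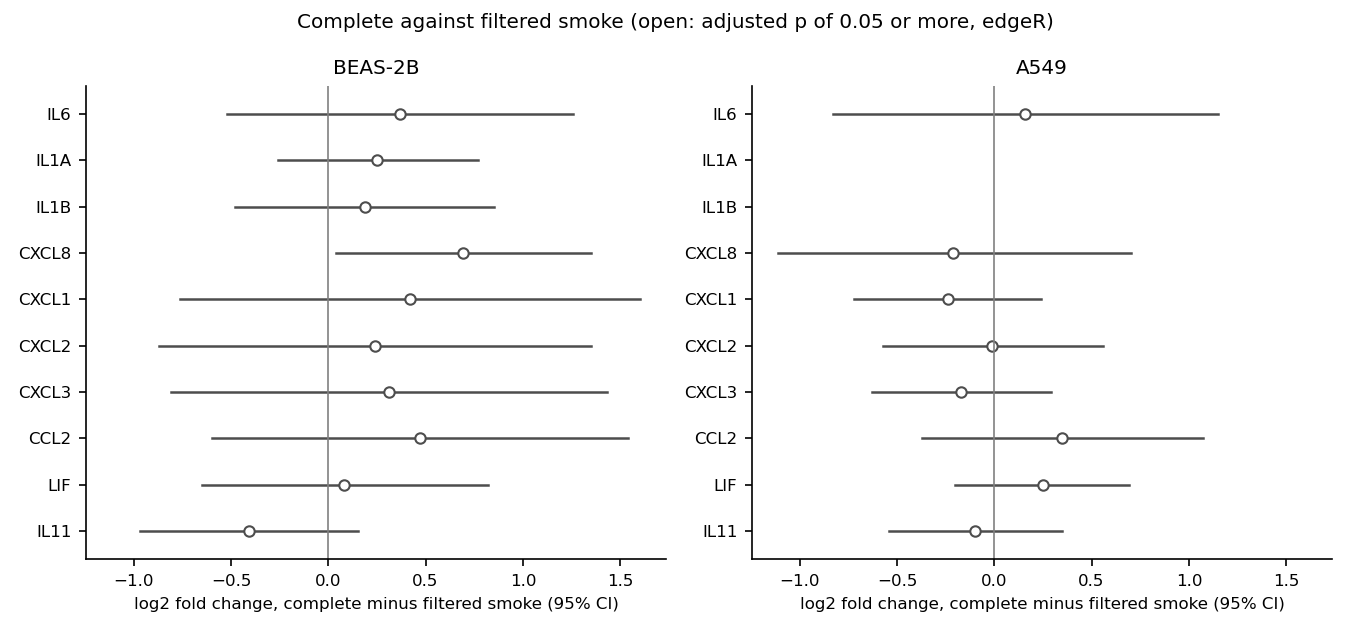
log2 fold change of complete over filtered smoke with its 95% confidence interval for each gene in BEAS-2B (left) and A549 (right); open marks have an adjusted p of 0.05 or more. The CXCL8 interval in BEAS-2B (0.04 to 1.35) is the one that does not reach 0.

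The lines already differed in clean air. BEAS-2B was higher than A549 in 4 members and lower in 3, where 55.4% of the 17703 genes tested were called in either direction. IL1A and IL1B, both among the 4, had not passed the filter on low counts in A549 by itself. Their calls set BEAS-2B against A549 counts near the floor. IL1B counts summed to 731 over 3 BEAS-2B libraries and to 4 over 3 A549 libraries, a ratio of 113 after scaling for depth, with a counting interval of 43.9 to 416, and IL1A counts to 247 and 9, a ratio of 17.0 (8.79 to 37.5). These intervals cover counting error only. IL6 was 5.03 times (2.33 ± 0.49, adjusted p = 0.000659) and CCL2 2.38 times as high in BEAS-2B as in A549 (1.25 ± 0.44, adjusted p = 0.0241). LIF averaged 23.6 ± 4.38 CPM in BEAS-2B and 94.6 ± 6.54 CPM in A549 (SD, n = 3 each), a log2 difference of -2.0 ± 0.29 (SE, edgeR adjusted p = 2.07e-05). CXCL3 was lower in BEAS-2B by value in every library, at 1.48 ± 0.912 CPM in BEAS-2B and 5.17 ± 0.632 CPM in A549 (-1.80 ± 0.43, adjusted p = 0.00195), and CXCL2 likewise (-1.21 ± 0.43, adjusted p = 0.0245). CXCL8 (0.72, adjusted p = 0.122), CXCL1 (-0.63, adjusted p = 0.229) and IL11 (-0.45, adjusted p = 0.105) were not called. The CXCL2 call was lost without A549 control 2 (0.076), A549 control 3 (0.0714) or BEAS-2B control 3 (0.113), and the CCL2 call without A549 control 2 (0.0941) or BEAS-2B control 1 (0.121).

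The difference between the lines in the response itself was tested in one fit of all 18 libraries, and no member was called. edgeR called 1.74% of genes for complete smoke and 0.825% for filtered smoke. For complete smoke 3070 genes and 5 members had an unadjusted p under 0.05, and for filtered smoke 2449 genes and 4 members, while DESeq2's Wald test called 2 members for complete and 1 for filtered smoke. The differences of BEAS-2B minus A549 in log2 fold change after complete smoke were 2.33 ± 0.59 for CXCL3 (adjusted p = 0.0557), 1.92 for IL6 (0.157), 1.76 for CXCL1 (0.159), 1.70 for CCL2 (0.174) and 1.32 for LIF (0.106). After filtered smoke they were 1.86 for CXCL3 (0.155), 1.73 for IL6 (0.253), 1.59 for CCL2 (0.256) and 1.5 for LIF (0.0943). CXCL8 was at 0.57 (interval -0.56 to 1.71) and -0.31 (interval -1.45 to 0.82), and IL11 at -0.33 and 0.00. CXCL3 was called for complete smoke without BEAS-2B control 1 (2.36, adjusted p = 0.0493), BEAS-2B control 2 (2.76, adjusted p = 0.0413) or BEAS-2B complete 3 (2.60, adjusted p = 0.0242), and CXCL1 without BEAS-2B complete 3 (2.12, adjusted p = 0.0429). With BEAS-2B control 1 and complete 3 both left out, IL6, CXCL1, CXCL3, CCL2 and LIF were called, 5 members in all, with adjusted p of 0.0117 to 0.0245. Of the BEAS-2B libraries, control 1 had the lowest TMM factor of the controls (1.023) and complete 3 the highest after complete smoke (0.894). Leaving them out sets the remaining groups farther apart in scaling, so these calls are no separate evidence of a line difference. Calls over all genes for complete smoke also varied, from 87 to 3774 over the alternatives, against 308 in the main fit. The same 5 genes were called with sample number as a block within each line, although pairing by number is less certain in BEAS-2B than in A549. Their blocked adjusted p for complete smoke were 0.00092 for CXCL3 (2.37), 0.00186 for CXCL1 (1.63), 0.00189 for CCL2 (1.58), 0.0036 for LIF (1.28) and 0.0196 for IL6 (1.92), and for filtered smoke they ran from 0.00219 for LIF (1.47) to 0.0387 for IL6 (1.77).

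**Figure D4:**
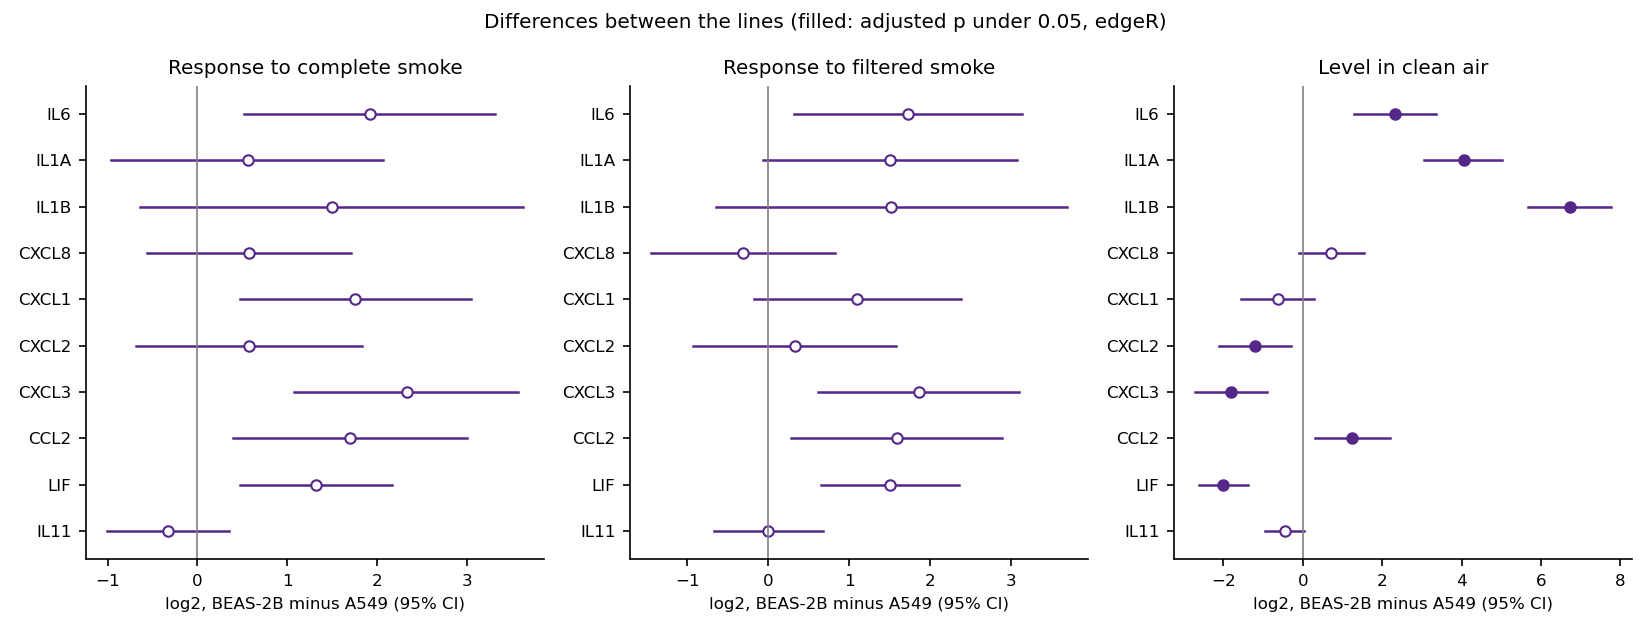
BEAS-2B minus A549 on the log2 scale with 95% confidence intervals, for the response to complete smoke (left), the response to filtered smoke (middle) and the level in clean air (right); filled marks have an adjusted p under 0.05. No response difference is filled, and in clean air IL1B (6.72) lies farthest to the right and LIF (-2.0) farthest to the left.

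Per kilobase of exon, the order of the members' levels changed with exposure in both lines. In BEAS-2B, CXCL8 (53.5 TMM-scaled CPM per kilobase) and CCL2 (41.9) led after complete smoke, CXCL8 (33.6), CCL2 (30.5) and IL11 (28.0) after filtered smoke, and IL11 (13.7) and CXCL8 (9.06) in clean air. Neighbours in the 2 smoke orders overlapped in their libraries, apart from LIF and IL1A after filtered smoke, while IL11 in clean air lay above CXCL8 without overlap. In A549, IL11 (35.7) and CXCL8 (21.9) led after complete smoke, IL11 (38.1) and CXCL8 (25.3) after filtered smoke, and LIF (23.8) and IL11 (18.7) in clean air. LIF and IL11 did not overlap in A549 clean air, whereas IL11 and CXCL8 did after either smoke. IL6, IL1A and IL1B were the lowest members in all 3 A549 groups, with IL1B at 0.0524 after complete and 0.0477 after filtered smoke and at 0.0194 in clean air.

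Across the 18 libraries, with each line's mean subtracted, IL6 ran closely with CXCL3 (Pearson r = 0.94), CCL2 (0.93) and CXCL8 (0.9), and CXCL1 with CXCL2 (0.93) and CXCL3 (0.93). LIF and IL11 showed no such relation to each other (r = -0.05), and CXCL8 and LIF little (0.27). Among 9005 protein-coding genes compared, IL6 was most like EDN1 (0.94), CXCL3 (0.94) and PLAUR (0.93), CXCL8 most like PCCA (0.92), OPN3 (0.92) and HBEGF (0.91), and CCL2 most like CYB5A (0.96), TIMM8A (0.94) and CYSTM1 (0.94). CXCL1 was most like TFPI2 (0.93), CXCL2 like CXCL1 (0.93), and CXCL3 like PHF11 (0.94). LIF was most like DUSP4 (0.93), TMEM156 (0.88) and DRAM1 (0.87), and IL11 most like ADM (0.91), ATF3 (0.9) and SRSF2 (0.89). These correlations are descriptions, since the points share exposure, library depth and scaling.

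Among the receptors and decoys of these cytokines, more genes fell than rose. Of 12 listed genes 9 were tested in BEAS-2B, where 1 rose and 4 fell after complete smoke and 1 rose and 6 fell after filtered smoke, with medians of -1.31 and -1.33, beside falls of 19.5% and 24.9% of all genes. In A549, 7 were tested, of which 3 fell after complete and 4 after filtered smoke and none rose, with medians of -0.76 and -1.0, beside falls of 16.9% and 23.5% of all genes. With the block 6 fell in A549 after complete smoke. IL6R, the interleukin-6 receptor, fell in BEAS-2B (-2.20 ± 0.34 after complete and -2.15 ± 0.34 after filtered smoke, adjusted p = 0.00302 and 0.00337) and in A549 (-1.34 ± 0.35 and -1.96 ± 0.36, adjusted p = 0.0192 and 0.00336). IL6ST, the shared gp130 subunit, fell in BEAS-2B by 1.60 after complete and 2.27 after filtered smoke on the log2 scale, and by 1.45 after filtered smoke in A549. After complete smoke IL6ST averaged 172 CPM in A549, against 357 CPM in clean air, a change that was not called. IL1R1, the signalling receptor of interleukin-1, fell in A549 (-1.2 after complete and -1.35 after filtered smoke), as did its partner IL1RAP (-0.54 and -0.70). LIFR fell in BEAS-2B after filtered smoke (-1.92). After complete smoke LIFR averaged 14.6 CPM there, against 37.8 CPM in clean air. ACKR1, a chemokine decoy, fell in BEAS-2B after complete smoke (-1.72, adjusted p = 0.0252), a call that was lost with control 1 and complete 3 both left out (-1.09, adjusted p = 0.0922). After filtered smoke ACKR1 averaged 4.31 CPM there, against 10.5 CPM in clean air. IL1R2, the interleukin-1 decoy receptor, was the one gene of the list that rose, in BEAS-2B (1.88 after complete and 1.73 after filtered smoke). In clean air ACKR1 had 1082 counts over 3 BEAS-2B libraries and 0 over 3 A549 libraries, at least 223-fold higher in BEAS-2B against a floor of 3 counts over the group.

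In the list of interleukin-1 release and antagonism the median was above 0 in all 4 comparisons. In BEAS-2B 6 of 10 tested rose and 1 fell after complete smoke and 7 rose and 1 fell after filtered smoke, and in A549 2 of 8 rose and 1 fell after complete and 4 rose and 1 fell after filtered smoke. Of all genes 21.5% and 23.6% rose in BEAS-2B and 15.6% and 23.1% in A549. The medians were 1.25 and 1.2 in BEAS-2B and 0.39 and 0.57 in A549. With library size alone 3 rose and 1 fell after complete and 4 rose and 2 fell after filtered smoke in BEAS-2B (medians 0.57 and 0.52), and 1 rose and 1 fell after complete and 3 rose and 1 fell after filtered smoke in A549. With the block 5 rose and 1 fell in A549 after complete smoke. In BEAS-2B after complete smoke CASP4, an inflammatory caspase, rose by 1.85, CASP1, which processes IL1B, by 1.55 and IL18, an interleukin-1 family cytokine, by 1.40. After filtered smoke CASP4 rose there by 1.89. CASP1 then averaged 31.7 CPM and IL18 48.2 CPM, against 11.4 and 19.1 CPM in clean air. GSDMD, the pore-forming gasdermin through which interleukin-1 leaves the cell, rose in A549 (1.15 after complete and 1.24 after filtered smoke) and in BEAS-2B after filtered smoke (1.49), and GSDME in A549 (0.47 and 0.68). In BEAS-2B GSDMD averaged 44.6 CPM after complete smoke, against 17.2 CPM in clean air. PYCARD, the inflammasome adaptor, rose after filtered smoke in BEAS-2B (1.99) and in A549 (1.35). After complete smoke PYCARD averaged 15.5 CPM in BEAS-2B and 14.6 CPM in A549, against 4.59 and 7.43 CPM in clean air. It was not called after complete smoke in either line. IL18BP, the interleukin-18 antagonist, fell in all 4 comparisons, by 1.56 and 1.95 in BEAS-2B and by 1.12 and 1.41 in A549. IL1RN, the interleukin-1 receptor antagonist, had 261 counts over the BEAS-2B controls and 0 over the A549 controls, at least 53.8-fold higher in BEAS-2B, and was not called after smoke in BEAS-2B (-0.09 after complete and -0.21 after filtered smoke). With library size alone the calls of PYCARD in BEAS-2B (adjusted p = 0.0551) and of GSDME in A549 after complete smoke (0.0647) were lost.

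Of 32 other epithelial cytokines and chemokines, 23 were tested in BEAS-2B, where 10 rose and 1 fell after complete and 11 rose and 1 fell after filtered smoke (medians 0.58 and 0.77). All genes tested rose there in 21.5% and 23.6% and fell in 19.5% and 24.9%. With library size alone these counts were 6 and 3 after complete and 6 and 6 after filtered smoke, and the medians -0.12 and 0.11, beside medians of -0.75 and -0.74 for all genes. IL24, an interleukin-10 family member, rose by 3.05 and 2.99, TSLP, the epithelial alarmin, by 2.92 and 2.69, and CSF2, which encodes GM-CSF, by 2.72 and 2.82. CCL20 rose by 2.17 after complete smoke and GDF15, a stress-induced cytokine, by 2.27 after filtered smoke. CCL20 averaged 2.86 CPM after complete, 2.56 CPM after filtered smoke and 0.631 CPM in clean air, and GDF15 3.63, 5.12 and 1.04 CPM. In A549, 11 were tested, of which 5 rose and 2 fell after complete and 6 rose and 2 fell after filtered smoke (medians 0.36 and 0.58), and with library size alone 3 rose and 2 fell in both comparisons. Without that change of scaling, 15.6% and 23.1% of all genes rose in A549, and 16.9% and 23.5% fell. In this line TNFSF9 (1.32 and 1.59) and GDF15 (1.21 and 1.32) rose, and TNFSF15 (-1.46 and -1.62) and CSF1 (-0.96 and -1.16), the macrophage growth factor, fell.

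Among 16 transcription factors and feedback genes of cytokine signalling, 9 rose in BEAS-2B after complete and 11 after filtered smoke and none fell, and in A549 8 rose and 2 fell after complete and 9 rose and 2 fell after filtered smoke. Of all genes 21.5% and 23.6% rose and 19.5% and 24.9% fell in BEAS-2B, and 15.6% and 23.1% rose and 16.9% and 23.5% fell in A549. The medians were 1.14 and 1.29 in BEAS-2B and 0.54 and 0.72 in A549. With library size alone 5 rose and 2 fell after complete and 7 rose and 1 fell after filtered smoke in BEAS-2B, and 6 rose and 2 fell after complete and 6 rose and 3 fell after filtered smoke in A549. With the block 9 rose and 3 fell after complete and 11 rose and 4 fell after filtered smoke in A549. RELB, the NF-kappaB subunit of the noncanonical pathway, rose by 2.66 and 2.75 in BEAS-2B, and by 1.63 after filtered smoke in A549. In A549 RELB averaged 19.0 CPM after complete smoke, against 7.94 CPM in clean air. ATF3, a stress-induced repressor of cytokine genes, rose in BEAS-2B (2.07 and 2.40) and in A549 (2.72 and 2.50). SOCS1, a feedback inhibitor of JAK signalling, rose in BEAS-2B (1.78 and 2.23, the first not called with library size alone, adjusted p = 0.0595) and in A549 (3.84 and 4.35). SOCS3, the feedback inhibitor of gp130, rose in A549 by 2.0 and 2.49, FOSL1, an AP-1 subunit, by 1.79 after complete smoke, and DUSP1, a phosphatase of MAP kinases, rose in BEAS-2B by 1.99 and 2.06. By mean level SOCS3 was also higher in BEAS-2B after complete and filtered smoke (39.1 and 44.5 CPM, against 18.5 CPM in clean air). So were FOSL1 there (163 and 169 against 53.1 CPM) and DUSP1 in A549 (297 and 348 against 157 CPM). FOSL1 averaged 91.7 CPM in A549 after filtered smoke, against 34.3 CPM in clean air. In the main fit no gene of this list was called for a line difference in response. With the block 5 were higher and 2 lower in BEAS-2B minus A549 for complete smoke, and 6 higher and 2 lower for filtered smoke. With library size alone 2 were lower for each smoke. With BEAS-2B control 1 and complete 3 left out, 5 were higher for complete smoke, and 2 higher and 1 lower for filtered smoke. NFKBIA and TNFAIP3, feedback genes of NF-kappaB, were singled out after their values had been seen. Neither was called in any of the 4 comparisons. NFKBIA was at 0.07 and -0.08 in BEAS-2B and at -0.14 and -0.02 in A549. TNFAIP3 was at 0.15 and 0.06 in BEAS-2B and at 0.03 and -0.41 in A549. They do not stand for all NF-kappaB genes of this list, of which RELB rose in BEAS-2B. NFKB2 averaged 46.8 CPM after complete and 51.6 CPM after filtered smoke in BEAS-2B, against 20.4 CPM in clean air. In A549 NFKB2 averaged 89.5 and 87.9 CPM, against 61.1 CPM, and NFKBIZ 64.8 and 65.3 CPM, against 30.3 CPM. The NFKBIZ mean was higher after both smokes in BEAS-2B too.

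Of 10 factors that act on AU-rich transcripts, between 5 and 7 did not pass the test in each comparison. In BEAS-2B 1 rose and 3 fell after complete and 2 rose and 3 fell after filtered smoke, and in A549 1 rose and 2 fell after complete and 1 rose and 3 fell after filtered smoke. The medians were -0.66 and -0.53 in BEAS-2B, where library size alone gave 1 rise and 7 falls after complete and 1 rise and 8 falls after filtered smoke, and -0.14 and -0.09 in A549, where the block gave 1 rise and 4 falls after complete and 2 rises and 4 falls after filtered smoke. Of all genes 21.5% rose and 19.5% fell after complete and 23.6% rose and 24.9% fell after filtered smoke in BEAS-2B, and 15.6% rose and 16.9% fell after complete and 23.1% rose and 23.5% fell after filtered smoke in A549. ZFP36, which encodes tristetraprolin, the protein that speeds the decay of ATTTA-bearing mRNAs such as those shown above, rose in BEAS-2B (1.74 ± 0.28 and 1.93 ± 0.28, adjusted p = 0.00335 and 0.00286) and in A549 (1.87 ± 0.20 and 2.29 ± 0.21, adjusted p = 0.00101 and 0.000414). RC3H1, which encodes the decay factor roquin-1, fell in A549 (-1.34 and -1.66) and in BEAS-2B after filtered smoke (-2.26). After complete smoke RC3H1 averaged 9.6 CPM in BEAS-2B, against 22.8 CPM in clean air, a change that was not called. TIA1, a translational repressor, fell in BEAS-2B (-0.95 and -1.16), and ZFP36L1, a paralog of ZFP36, fell in A549 (-0.45 and -0.44). ZC3H12A, the RNase regnase-1 that cleaves IL6 mRNA, rose in BEAS-2B after filtered smoke (1.09), a call that was lost with library size alone (0.43, adjusted p = 0.256). After complete smoke ZC3H12A averaged 23.1 CPM there, against 13.5 CPM in clean air, which was not called. No gene of the 5 lists was called between complete and filtered smoke in either line.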

How the data were processed

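Per the labels' protocols, TRIzol served for extraction and a TruSeq mRNA kit for the libraries. Per the submitters' processing notes, reads were aligned with STAR 2.7.10b to GRCh38. The deposited values are whole counts of reads per gene, and the authors' column for one strand (column 4) was used, since it held 11.7 to 17.1 times the counts of the opposite strand. The 4 summary rows, 18.85 to 45.569% of reads, were left out. Symbols came from a separate list of gene names, and gene positions, exon lengths and 3′ untranslated regions from GENCODE 29. No 2 libraries were identical.

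The set and the lists were chosen with earlier results of these data known. R 4.3.3 and edgeR 4.0.16 (filterByExpr, TMM, robust quasi-likelihood fit, Benjamini-Hochberg adjustment over all genes tested) gave the tests, each line by itself for exposures and all 18 libraries for line differences. The steps were tested on simulated data in which few genes changed, as many up as down, with less spread than in BEAS-2B. That test therefore does not cover the scaling differences seen in BEAS-2B. Every member is named, and of each list up to 4 called genes a comparison with the largest change and a mean of at least 1 CPM. A list gene that is not named for a comparison may still have changed there. Alternatives were DESeq2 1.42.0 size factors and Wald test, library size alone, limma 3.58.1 voom, other filters, either-strand counts, fewer libraries and a sample-number block, and those for the lists were chosen after seeing the data. Same-numbered A549 libraries deviated together (9 of 9 correlations over 0.1, 0.217 to 0.793), as pairing by number would give, though the labels do not state pairing. Libraries 1 and 2 of complete and filtered smoke also deviated together across numbers in A549 (0.266 and 0.333). Of the same-numbered BEAS-2B correlations 8 of 9 were over 0.1 (-0.135 to 0.674). The exception was complete 2 with control 2 (-0.135), so pairing by number is less certain there.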

Additional observations from a re-analysis of the deposited data

Results flagged for a closer look

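CASP4, an inflammatory caspase that promotes interleukin-1 release, differed between the lines in its response to both exposures, by a test of the difference itself. The difference of BEAS-2B minus A549 in log2 fold change was 1.65 ± 0.28 for complete smoke (edgeR adjusted p = 0.0084) and 1.70 ± 0.28 for filtered smoke (adjusted p = 0.00843). In BEAS-2B it averaged 120 ± 21.8 CPM after complete smoke, 125 ± 29.3 CPM after filtered smoke and 33.3 ± 6.42 CPM in clean air (SD, n = 3 each). In A549 it averaged 13.1 ± 0.997 CPM after complete smoke, 13.1 ± 0.826 CPM after filtered smoke and 11.4 ± 1.03 CPM in clean air.

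IL11RA, the receptor of IL11, differed between the lines in its response to complete smoke, by the same test (-3.08 ± 0.66, adjusted p = 0.0265). It averaged too few counts to be named by the rule and was picked after its values had been seen. For filtered smoke the difference was not called (-2.73, adjusted p = 0.0698). In BEAS-2B IL11RA fell by 2.06 after complete and 2.16 after filtered smoke on the log2 scale, and in A549 it did not pass the filter on low counts. The A549 side of the difference therefore rests on few counts.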

How the results depend on the processing

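Over all alternatives, the 540 values for called members kept their direction, 485 of them past the threshold and 55 not. Of 864 values for uncalled members 40 changed sign and 60 became called. With a replicate block, called members numbered 10 and 10 in BEAS-2B after complete and filtered smoke, 7 and 8 in A549, 5 and 5 for the line differences in response, and 10 between lines in clean air. For these line differences the unfiltered fit called 5 and 4, DESeq2's test 2 and 1, and leaving out BEAS-2B control 1 and complete 3 together 5 and 1. Leaving out each library in turn gave 6 to 9 and 7 to 9 called members in BEAS-2B, 3 to 6 and 3 to 7 in A549, 0 to 2 and 0 to 0 for the line differences in response, and 5 to 7 in clean air. Library size alone called 7 and 6 members in BEAS-2B and 4 and 4 in A549. In BEAS-2B the block added LIF after complete (0.79, adjusted p = 0.00302) and filtered smoke (0.75, adjusted p = 0.00379) and IL11 after complete smoke (0.59, adjusted p = 0.0148).

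Signs changed with library size alone for IL11 in BEAS-2B after complete smoke (-0.02), for CXCL2 in A549 between smokes (0.03), and in the line differences for CXCL8 (-0.02) and CXCL2 (-0.07) after complete and CXCL2 (-0.21) and IL11 (-0.48) after filtered smoke. IL6 between smokes in A549 was at -0.03 with limma-voom. The line difference of IL11 after filtered smoke was -0.01 with DESeq2 size factors, no filter or DESeq2's test, -0.00 with the stricter filter or either strand, -0.04 with limma-voom and -0.05 with the block. With each library left out, complete minus filtered smoke ran in BEAS-2B from -0.15 to 0.59 for IL6, -0.32 to 0.77 for CXCL1, -0.43 to 0.56 for CXCL2, -0.23 to 0.57 for CXCL3, -0.12 to 0.96 for CCL2 and -0.35 to 0.33 for LIF, and in A549 from -0.42 to 0.53 for IL6, -0.75 to 0.15 for CXCL8, -0.29 to 0.19 for CXCL2, -0.29 to 0.02 for CXCL3, -0.06 to 0.39 for LIF and -0.27 to 0.10 for IL11. The line difference ran from -0.09 to 1.01 for IL1A and -0.11 to 0.90 for CXCL2 after complete, and from -0.12 to 0.57 for CXCL2 and -0.27 to 0.19 for IL11 after filtered smoke. The causes were not tested.

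With the block, genes called over all genes tested after complete smoke numbered 10315 in BEAS-2B (6704 without it) and 8321 in A549 (4951 without it). With BEAS-2B control 1 and complete 3 left out they numbered 10616 in BEAS-2B. Without 1 library they fell as low as 2916 and 3652 in BEAS-2B after complete and filtered smoke, and 1422 and 4006 in A549. For the line differences they were 308 and 146, with 87 to 797 and 47 to 182 without 1 library, 1571 and 822 with library size alone, and 3541 and 2742 with the block. In clean air the stricter filter called 6135 in place of 9799. Between smokes the unfiltered fit called 19 genes in A549.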
